A study of Mus musculus with 9 samples.

Results

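The 31 genes described here mark the tissues at the border of the brain: 10 mark the epithelium of the choroid plexus, 5 mark ependymal cells and 16 mark fibroblasts of the meninges. They were chosen by name as markers of these tissues, and make up 31 of the 43629 genes in the count table. Of these, 30 passed the filter on low counts and were tested among 19753 genes, and Kcne2 was not. The libraries came from frontal cortex of 4 Neat1-/- mice, aged 3, 3, 4 and 2 months (replicates 1, 3, 4 and 5), and 5 WT mice, aged 2, 2, 3, 4 and 4 months (replicates 1 to 5). All were female and of the strain C57BL/6, and each library is labelled as a separate replicate of its genotype. In Neat1-/- mice a lacZ cassette with polyadenylation signals sits just after the start site of the lncRNA gene Neat1, while WT mice carry no insertion. The cortex was dissected from brains that had been frozen whole, and RNA was sequenced after removal of ribosomal RNA. Levels are CPM, the counts of a gene divided by the library's total and multiplied by 1000000, scaled by TMM factors, and values are given in the order of the replicate numbers above.

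The choroid plexus is a vascular tuft in the ventricles whose epithelium makes the cerebrospinal fluid and secretes transthyretin into it. Ependymal cells line the ventricles and move the fluid with motile cilia, whose genes are switched on by Foxj1 together with factors of the RFX family. The meninges wrap the surface of the cortex, and their fibroblasts lay down fibrillar collagens and small proteoglycans, take up solutes and make retinoic acid. Choroid plexus and ependyma lie at the ventricles and the meninges at the outer surface, outside the grey matter of the cortex itself.

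The sequences before the start sites of 4 members are shown, as examples of the genes with the ependymal and the collagen patterns described further on. They are the 250 bases before the start site in RefSeq (GRCm38.p6), of which 21 of the 31 members had at least 1 entry. Capitals mark GTTGCC, the core of the site that RFX factors bind, in the first pair and CCAAT in the second pair, searched on both strands. Ccdc153 (chr9:44240427-44240676, plus strand) holds 1 match that begins 152 bases before the start, Dynlrb2 (chr8:116504765-116505014, plus strand) holds 1 that begins 51 bases before it, Col1a2 (chr6:4505368-4505617, plus strand) holds 1 CCAAT that begins 109 bases before it, and Col3a1 (chr1:45311288-45311537, plus strand) holds 0.
Ccdc153: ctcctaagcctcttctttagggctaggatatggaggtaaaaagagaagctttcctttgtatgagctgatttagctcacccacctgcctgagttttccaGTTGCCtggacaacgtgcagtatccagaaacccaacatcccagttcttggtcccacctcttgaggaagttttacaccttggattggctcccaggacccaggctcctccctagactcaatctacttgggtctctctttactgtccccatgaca
Dynlrb2: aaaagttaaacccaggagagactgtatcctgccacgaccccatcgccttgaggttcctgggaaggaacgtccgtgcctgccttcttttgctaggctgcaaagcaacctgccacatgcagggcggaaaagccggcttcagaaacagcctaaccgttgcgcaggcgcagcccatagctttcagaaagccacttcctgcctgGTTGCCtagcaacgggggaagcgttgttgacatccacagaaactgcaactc
Col1a2: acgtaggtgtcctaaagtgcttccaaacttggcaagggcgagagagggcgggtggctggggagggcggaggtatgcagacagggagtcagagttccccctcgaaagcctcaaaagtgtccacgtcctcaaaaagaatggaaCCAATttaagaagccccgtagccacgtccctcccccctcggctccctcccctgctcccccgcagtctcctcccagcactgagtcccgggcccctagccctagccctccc
Col3a1: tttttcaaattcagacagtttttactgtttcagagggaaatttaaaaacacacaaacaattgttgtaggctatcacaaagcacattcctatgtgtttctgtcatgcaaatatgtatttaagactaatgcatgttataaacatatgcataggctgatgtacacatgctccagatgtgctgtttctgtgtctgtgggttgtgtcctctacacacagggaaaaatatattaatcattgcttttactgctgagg
GTTGCC was found in 10.4% of all 32851 windows of this length, and in 2 of the 3 ependymal, 4 of the 10 choroid plexus and 0 of the 19 meningeal windows. Counted by gene, these were 2 of the 3 ependymal members with an entry, 3 of the 6 choroid plexus members (Aqp1, Kcne2 and Otx2) and 0 of the 12 meningeal members. CCAAT was found in 33.8% of all windows, and in 5 of the 19 meningeal, 1 of the 3 ependymal and 2 of the 10 choroid plexus windows. By gene, that was 5 of the 12 meningeal, 1 of the 3 ependymal and 2 of the 6 choroid plexus members. Both ependymal members that hold GTTGCC are shown, while Tmem212, the ependymal member with an entry and no GTTGCC, is not. Some members have several windows, and a match describes the letters only.

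Total counts lay between 52629603 and 64648856 in Neat1-/- libraries and between 51276067 and 62819932 in WT libraries. As the check of the genotype, Neat1 stood at 7.38, 7.11, 8.36 and 9.72 CPM in Neat1-/- mice, against 60.8, 83.2, 119.9, 68.1 and 75.3 CPM in WT mice, which is a log2 difference of -3.33 ± 0.189 (SE; edgeR adjusted p = 1.27e-06). By genotype, edgeR called 14 genes, or 0.0709%, once p was adjusted, while 843 (4.27%) were higher and 796 (4.03%) lower with p unadjusted. WT replicates 3 and 4 stood apart from the other libraries in the members, as described next, so results by genotype are given with and without them. The labels name no batch or sequencing date.

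Ttr, which carries thyroxine and the retinol-binding protein, had the highest level of the 10 choroid plexus members, and 1 library held far more of it than the other 8. It was counted at 20.6, 19.4, 12.1 and 9.55 CPM in Neat1-/- mice, against 18.04, 17.01, 102, 20.2 and 14.7 CPM in WT mice. WT replicate 3 was 5.80 times the median of the other 8 libraries, and outside it the genotypes overlapped. Ttr (ENSMUSG00000061808, chromosome 18 from 20665280 to 20674321 on the plus strand) also had the highest mean level per length of the 31 members, at 21.9 CPM per kb of exon over the 9 libraries. WT replicate 3 raised that mean, since the mean of Ttr was 25.9 CPM and its median 18.04 CPM. The rank per length without that library was not computed.

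The other choroid plexus members repeated the excess of WT replicate 3 at lower levels. Folr1, the receptor that passes folate into the fluid, was at 0.249, 0.367, 0.293 and 0.478 CPM in Neat1-/- mice, against 0.522, 0.305, 1.45, 0.463 and 0.246 CPM in WT mice. Slc4a5, a sodium bicarbonate cotransporter, was at 0.140, 0.227, 0.114 and 0.0955 CPM in Neat1-/- mice, against 0.131, 0.209, 0.784, 0.0712 and 0.197 CPM in WT mice. Both had their highest value in WT replicate 3, at 4.32 times and 5.80 times the median of the other 8. Kcne2, a subunit of potassium channels, was not tested because too few libraries reached the count minimum, and had 12, 8, 7 and 4 counts in Neat1-/- mice, against 6, 10, 67, 20 and 5 counts in WT mice. Its single high library was again WT replicate 3, at 10.1 times the median of the other 8.

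Kl, the klotho coreceptor of Fgf23, ranged over 3.10 to 3.48 CPM in Neat1-/- mice and 2.03 to 6.05 CPM in WT mice. Clic6, of the chloride intracellular channel family, ranged over 1.11 to 2.17 CPM in Neat1-/- mice and 1.45 to 3.39 CPM in WT mice, the potassium channel Kcnj13 over 1.21 to 2.03 CPM in Neat1-/- mice and 1.06 to 2.26 CPM in WT mice, and the water channel Aqp1 over 0.287 to 0.769 CPM in Neat1-/- mice and 0.232 to 1.11 CPM in WT mice. The highest WT value of each of these 4 genes was that of WT replicate 3, between 1.83 and 2.38 times the median of the other libraries. WT replicate 3 was thus the highest of the 9 libraries in 9 of the 10 choroid plexus members, and in 8 of the 9 tested, where 18.5% of all tested genes were at their highest in that library. The exception was Sostdc1. Taken as the median over the 10 members of log2 CPM less the mean of the 9 libraries, the class stood at 1.41 in WT replicate 3 and between -0.71 and 0.07 in the other libraries.

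Many other genes of the choroid plexus were also high in that library. Of 20 further genes of this epithelium, 11 were at their highest in WT replicate 3, and the median of the list there was 0.63. Prlr, the prolactin receptor, was at 3.83 CPM in WT replicate 3 against a median of 0.753 CPM in the other 8 libraries, a ratio of 5.08 that placed it among the 10 highest outside the members, of 16597 genes with a mean of at least 0.5 CPM. The claudin Cldn2, below that minimum and named after its values were seen, was at 0.765 CPM there and at no more than 0.160 CPM elsewhere. The 2 genes of the list with the highest level per length did not share the full excess: Enpp2, which oligodendrocytes also express, was at 360.1 CPM in WT replicate 3 and at 266 to 319 CPM in the other libraries, and Slc13a4 at 16.2 CPM, within its range elsewhere. Among the 10 genes with the largest ratio in WT replicate 3, the other 9 included 3 TEC models (gene models awaiting an experimental check), 2 antisense genes and 1 sense intronic gene. The part of these genes' excess in that of the members was not tested.

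Sostdc1, a secreted antagonist of BMP signals, was the member that separated the genotypes. It had 9, 10, 4 and 4 counts in Neat1-/- mice, against 21, 17, 23, 28 and 21 counts in WT mice, which is 0.140, 0.175, 0.0652 and 0.0764 CPM in Neat1-/- mice, against 0.343, 0.273, 0.440, 0.499 and 0.345 CPM in WT mice. Every Neat1-/- mouse was below every WT mouse, with means of 0.114 ± 0.0522 CPM in Neat1-/- mice (SD, n = 4) and 0.380 ± 0.0890 CPM in WT mice (SD, n = 5). Sostdc1 (ENSMUSG00000036169, chromosome 12 from 36314139 to 36318452 on the plus strand) had the log2 fold change -1.70 ± 0.385 (SE; edgeR adjusted p = 0.303), so it was not called over all genes. On the CPM, a two-sided exact permutation test gave p = 0.00794, the smallest that 4 mice against 5 allow. That test was computed for each of the 31 members, and the next lowest value from the exact permutation test was p = 0.119. A library had to reach 0.165 CPM to count toward the filter, which 1 of 4 Neat1-/- libraries and 5 of 5 WT libraries did, so the gene entered the test through the WT mice. Without WT replicates 3 and 4 the log2 fold change was -1.48 ± 0.44 (SE; edgeR adjusted p = 0.482). Over all alternatives in which it had one, the adjusted p from edgeR or limma lay between 0.0761 and 0.74.

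Otx2, the homeodomain factor that choroid plexus epithelium needs to form and to persist, was at 0.0623, 0.175, 0.196 and 0.0382 CPM in Neat1-/- mice, against 0.0980, 0.129, 0.746, 0.196 and 0.444 CPM in WT mice. The 2 highest values were those of WT replicates 3 and 5, and the genotypes overlapped, since WT replicates 1 and 2 lay below 2 of the Neat1-/- mice. The counts ranged from 2 to 12 in Neat1-/- mice and from 6 to 39 in WT mice, and 2 of 4 Neat1-/- and 3 of 5 WT libraries reached the count minimum. Its log2 fold change came to -1.45 ± 0.595 (SE; edgeR adjusted p = 0.580), and -1.10 ± 0.475 without WT replicates 3 and 4 (SE; edgeR adjusted p = 0.666). Without WT replicate 3 alone it was -0.81, past no threshold, and with limma it was -1.04, also past none.

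**Figure D1:**
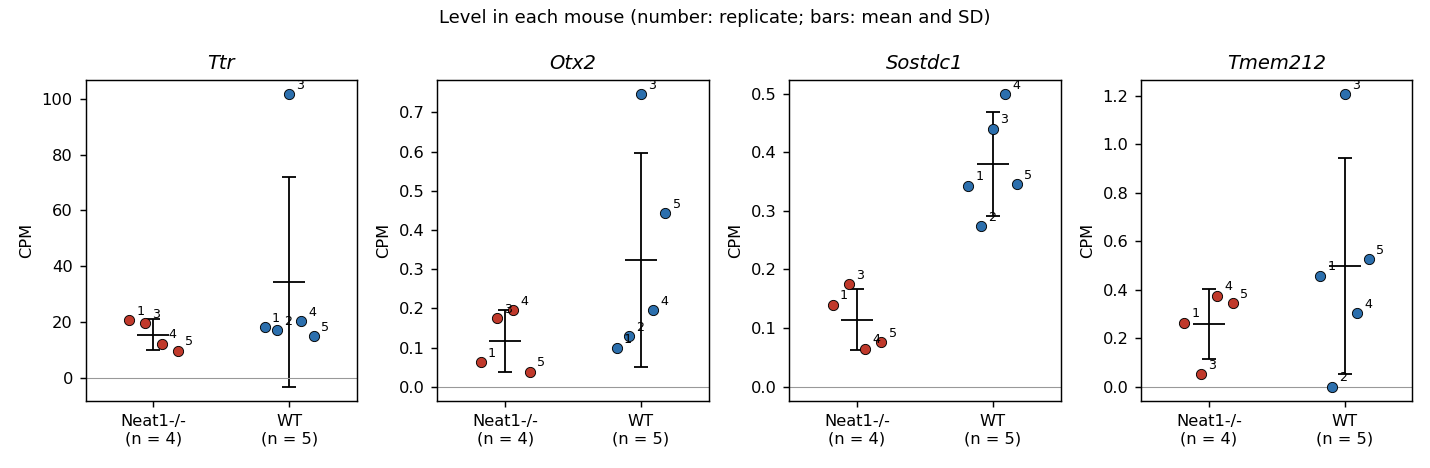
TMM-scaled CPM of Ttr, Otx2, Sostdc1 and Tmem212 in each mouse, with Neat1-/- mice (red, n = 4) left of WT mice (blue, n = 5); numbers are replicates, horizontal bars the means and error bars the SD. Sostdc1 is the 1 of the 4 genes whose genotypes do not overlap; Ttr reaches 102 CPM in WT replicate 3 alone, and Tmem212 has 0 counts in WT replicate 2.

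The fitted differences of the choroid plexus members were all on the negative side, and those of Ttr and Folr1 rested on WT replicate 3 while that of Sostdc1 did not. The log2 fold change was below 0 in all 9 tested members and had the median -0.79. Over all 19753 genes tested, 9900 were below 0 and the median was 0.00. No member passed an adjusted p of 0.05, and 2 of 9, Sostdc1 and Otx2, were lower at an unadjusted p under 0.05, which 4.03% of all tested genes were. Sostdc1 passed the filter on low counts through the WT mice, in which it was higher, so this count is not independent of the filter. A filter of CPM of at least 1 in 4 libraries removed both genes. For Ttr the log2 fold change stood at -1.14 ± 0.544 (SE; edgeR adjusted p = 0.607), and -0.09 without WT replicates 3 and 4. Without WT replicate 3 alone it was -0.19 for Ttr, -0.16 for Folr1 and -1.64 for Sostdc1. In that fit Slc4a5 was not tested, and the median of the other 8 members was -0.12, against -0.59 for the same 8 with all mice. Of the 29 members tested there 1, Sostdc1, was lower at an unadjusted p under 0.05, which 3.71% of the genes tested then were. Of the 20 further choroid plexus genes, 12 were tested, and 4 of these were lower, with p unadjusted and under 0.05, and 0 were higher (Enpp2, Prlr, F5 and Prr32, of which F5 and Prr32 are named for this result). None of these 4 passed an adjusted p of 0.05, and Enpp2, with log2 fold change -0.19 ± 0.0493 (SE; edgeR adjusted p = 0.388), had the lowest. WT replicate 3 was the highest library in 11 of the 20 further genes, and its part in these differences was not tested. In bulk tissue, fewer cells of a type and less RNA per cell cannot be told apart.

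The ependymal members had low levels in all mice, and 2 libraries, 1 of each genotype, held the least. Foxj1, the master regulator of motile cilia, was at 3.95, 1.96, 3.37 and 3.53 CPM in Neat1-/- mice, against 3.35, 2.32, 4.55, 3.54 and 3.45 CPM in WT mice. Its lowest values were those of Neat1-/- replicate 3 and WT replicate 2. Ccdc153, a protein of ciliated cells, was at 0.747, 0.315, 0.897 and 0.592 CPM in Neat1-/- mice, against 0.669, 0.209, 0.727, 0.855 and 0.821 CPM in WT mice. Dynlrb2, a light chain of dynein, was at 0.778, 0.280, 0.685 and 0.630 CPM in Neat1-/- mice, against 0.8001, 0.418, 0.708, 0.659 and 0.723 CPM in WT mice. In both genes the same 2 libraries were the lowest, Neat1-/- replicate 3 for Dynlrb2 and WT replicate 2 for Ccdc153.

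Tmem212, a membrane protein of ciliated cells, had 17, 3, 23 and 18 counts in Neat1-/- mice, against 28, 0, 63, 17 and 32 counts in WT mice. The 0 counts of WT replicate 2 allow a level of up to 0.0478 CPM, taking 3 counts as the limit, which covers counting error only. The 3 counts of Neat1-/- replicate 3 were the next lowest, and the 63 counts of WT replicate 3 the highest. Rsph1, a component of the radial spoke head, varied least of the 5, over 1.82 to 2.06 CPM in Neat1-/- mice and 1.58 to 2.004 CPM in WT mice, with its lowest value in WT replicate 2 as well.

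WT replicate 2 was therefore the lowest of the 9 libraries in 3 of the 5 ependymal members and Neat1-/- replicate 3 in the other 2, where 10.9% and 10.8% of all tested genes were lowest in these libraries. The median of the class was -0.85 in Neat1-/- replicate 3 and -0.50 in WT replicate 2, against 0.12 to 0.28 in the other 7 libraries. Of 24 further genes of motile cilia, 8 were lowest in WT replicate 2 and 6 in Neat1-/- replicate 3, with list medians of -0.27 and -0.18. The 2 of them with the highest level per length, Rfx3 and Drc1, which other brain cells also express, differed less, at 77.6 to 87.8 CPM and 15.5 to 17.7 CPM over the 9 libraries. The 6 markers of oligodendrocytes, Mbp among them, were also low in these libraries, with a median of -0.48 and all 6 lowest in Neat1-/- replicate 3 and a median of -0.26 in WT replicate 2, and it was -0.28 in Neat1-/- replicate 4, where the ependymal median was 0.17. The part of the oligodendrocyte genes' shift in that of the ependymal members was not tested. Outside the members, the 10 genes lowest in WT replicate 2 included the mitotic kinase Bub1b, the kallikrein Klk6, which oligodendrocytes make, and the dopamine receptor Drd2, at 0.241, 0.265 and 0.307 times the median of the other 8 libraries.

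By genotype, edgeR found 0 of the 5 ependymal members different at an adjusted or an unadjusted p under 0.05, and DESeq2 and limma gave 0 as well. The median log2 fold change was -0.09, and with Neat1-/- replicate 3 left out it was 0.08. Tmem212 had the largest difference, at a log2 fold change equal to -0.91 ± 0.756 (SE; edgeR adjusted p = 0.749), and genotypes that overlapped. Leaving out WT replicate 3 gave -0.28, leaving out Neat1-/- replicate 3 gave -0.57, and limma gave -0.012. Leaving out WT replicate 2, the library with 0 counts, enlarged it to -1.27 ± 0.536 (SE; edgeR adjusted p = 0.533). In that fit Tmem212 was lower at an unadjusted p under 0.05, as 5.37% of the genes tested then were. With single libraries left out it ran from -1.28 to -0.28. Of the 24 further ciliary genes neither direction held a gene with p unadjusted and under 0.05, and the median was -0.12.

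**Figure D2:**
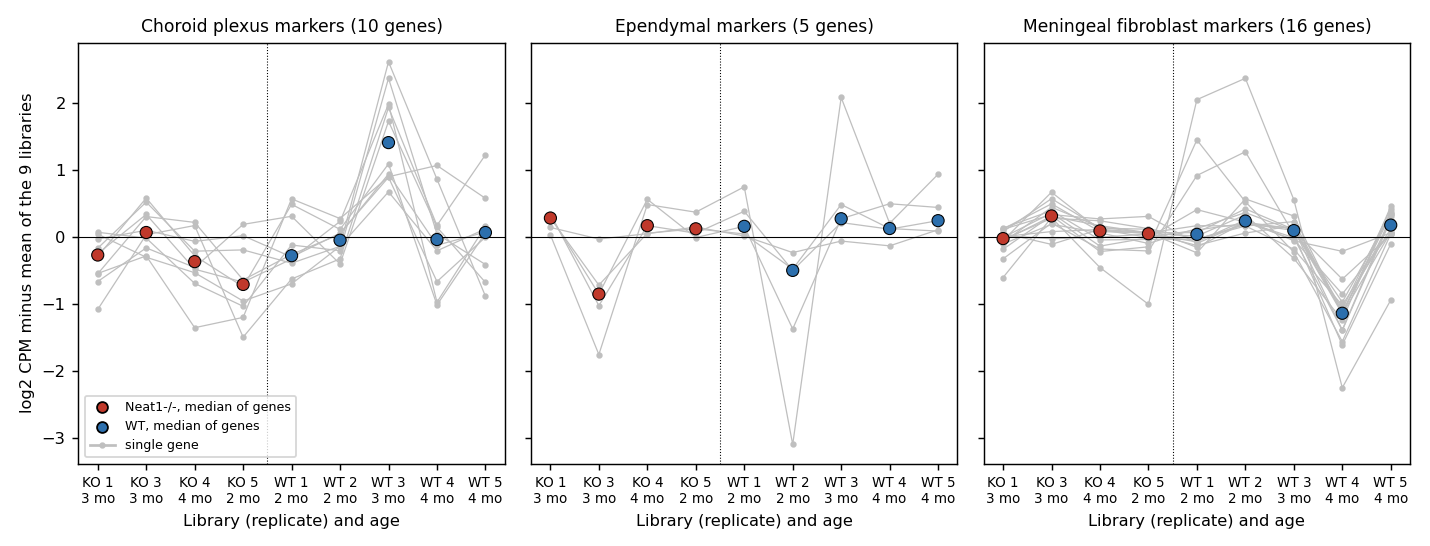
Level of each member in each library, as log2 CPM (prior count 2) less the mean of the 9 libraries, in panels for 10 choroid plexus, 5 ependymal and 16 meningeal markers; grey lines are genes and large points the class medians, red for Neat1-/- (KO on the axis) and blue for WT, with the age in months under each replicate. The choroid plexus median is 1.41 in WT replicate 3, the ependymal median -0.85 in Neat1-/- replicate 3, and the meningeal median -1.14 in WT replicate 4.

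The meningeal members were set apart by a single library in which every one of them was low. WT replicate 4 was the lowest of the 9 libraries in 16 of the 16 members, where 14.8% of all tested genes were at their lowest there. The class median was -1.14 in that library and between -0.02 and 0.31 in the other 8.

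The small leucine-rich proteoglycans, which bind collagen fibrils, show the pattern. Dcn, decorin, had 696, 760, 746 and 570 counts in Neat1-/- mice, against 779, 933, 650, 332 and 901 counts in WT mice. Fmod, fibromodulin, was at 12.4, 14.5, 13.8 and 14.2 CPM in Neat1-/- mice, against 10.7, 13.4, 11.4, 4.35 and 13.7 CPM in WT mice. Ogn, osteoglycin, was at 12.1, 17.02, 12.5 and 12.4 CPM in Neat1-/- mice, against 10.3, 13.3, 12.4, 4.35 and 14.2 CPM in WT mice. In each of these 3 genes WT replicate 4 lay between 0.32 and 0.47 times the median of the other 8 libraries, and the 8 others overlapped between genotypes. Lum, lumican, ranged over 2.59 to 3.03 CPM in Neat1-/- mice and 1.25 to 4.16 CPM in WT mice, and Bgn, biglycan, over 4.99 to 5.41 CPM in Neat1-/- mice and 3.22 to 5.77 CPM in WT mice. Bgn in WT replicate 4 stood nearer to the rest, at 0.605 times the median of the others. Islr, a secreted protein of the same repeat family, ranged over 10.7 to 14.5 CPM in Neat1-/- mice and 5.06 to 11.6 CPM in WT mice.

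Genes for growth factor, solute and retinoic acid handling shared the low level of WT replicate 4. Igf2, the insulin-like growth factor of the meninges, was at 16.05, 20.05, 19.5 and 18.01 CPM in Neat1-/- mice, against 16.1, 18.8, 18.1, 7.57 and 19.5 CPM in WT mice. Slc6a13, a GABA and taurine transporter, was at 10.3, 12.4, 9.15 and 9.19 CPM in Neat1-/- mice, against 9.23, 10.6, 11.1, 4.27 and 11.9 CPM in WT mice. WT replicate 4 held 0.41 times the median of the others in both. Aldh1a2, which makes retinoic acid, ranged over 6.58 to 9.49 CPM in Neat1-/- mice and 3.28 to 9.35 CPM in WT mice, and Crabp2, which binds it, over 1.91 to 3.18 CPM in Neat1-/- mice and 0.819 to 2.74 CPM in WT mice. Pcolce, which speeds the trimming of procollagens, ranged over 5.45 to 7.01 CPM in Neat1-/- mice and 2.53 to 7.57 CPM in WT mice. All 3 were lowest in WT replicate 4, at 0.437, 0.390 and 0.420 times the median of the others.

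Igfbp2, which binds Igf2 and is also made by choroid plexus, had the second highest mean level per length of the members, 16.9 CPM per kb, and the smallest drop. Only Ttr, whose mean was raised by WT replicate 3, ranked above it. It had 2019, 1742, 1899 and 1675 counts in Neat1-/- mice, against 1807, 2301, 1558, 1501 and 1971 counts in WT mice, and on the CPM scale WT replicate 4 held 0.857 times the median of the others. Spp1, osteopontin, which some neurons and macrophages also make, was at 7.07, 9.11, 6.46 and 7.05 CPM in Neat1-/- mice, against 9.44, 8.28, 6.91, 3.92 and 7.43 CPM in WT mice. Here WT replicate 4 held 0.541 times that median.

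The low level of WT replicate 4 extended to other genes of the meninges. Of 24 further meningeal genes, 20 were lowest in WT replicate 4, with a list median of -0.78 there and -0.01 to 0.21 elsewhere. Mgp, the matrix Gla protein, was at 7.18 CPM in WT replicate 4 against 14.1 CPM or more in each other library, while Col6a1, a chain of type VI collagen, was at 65.4 CPM against 66.6 CPM or more. The 7 markers of macrophages at the brain's borders were all lowest in WT replicate 4, with a list median of -0.90, among them the mannose receptor Mrc1 at 5.57 CPM and the chemokine Pf4 at 0.178 CPM. The median there was -0.18 for 13 endothelial and for 12 mural genes, -0.14 for astrocytes, -0.12 for microglia and -0.05 for neurons. The solute carrier Slc22a2, the enzyme Ndst4, the tetraspanin Tspan8, Col6a4, the glucose transporter Slc2a4, Mpzl2 and the cadherin Cdh1 were among the 10 genes with the lowest ratio in that library, at 0.0868, 0.168, 0.170, 0.186, 0.199, 0.201 and 0.212 times the median of the other 8. The highest library was Neat1-/- replicate 3 for 7 members and WT replicate 2 for 7, where 11.3% and 9.55% of all tested genes peaked, and WT replicate 1 for 2. The part of the border macrophage genes' shift, or of the tissue it marks, in the level of the members was not tested. In the choroid plexus list, Slc13a4, which meningeal cells also express, was at 4.63 CPM in WT replicate 4 and at 13.2 to 19.1 CPM elsewhere.

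On the CPM scale, the 3 fibrillar collagens departed from the rest of the class, being highest in the 2 youngest WT mice. Col1a1, a chain of type I collagen, was at 12.6, 23.4, 13.9 and 9.51 CPM in Neat1-/- mice, against 79.5, 99.1, 28.2, 3.99 and 9.94 CPM in WT mice. Col1a2, the partner chain, was at 31.8, 45.95, 35.2 and 34.4 CPM in Neat1-/- mice, against 75.3, 96.3, 40.96, 12.98 and 37.04 CPM in WT mice. Col3a1, of type III collagen, was at 6.44, 9.14, 6.29 and 6.61 CPM in Neat1-/- mice, against 20.1, 10.6, 6.26, 2.46 and 7.56 CPM in WT mice. In Col3a1 only WT replicate 1 stood well apart, with WT replicate 2 near Neat1-/- replicate 3. WT replicates 1 and 2, both 2 months old, held the highest values of all 3 genes, and the Neat1-/- mouse of that age, replicate 5, did not, with Col1a1 at 9.51 CPM there against a mean of 89.3 CPM in the 2 WT mice. In Dcn, Lum, Igf2 and the other meningeal members, these 2 mice had means between 0.849 and 1.27 times the level of the Neat1-/- mouse. The 2 chains of type I collagen were thus 9.38 and 2.49 times, and Col3a1 2.32 times, as high in the 2-month WT mice as in the 2-month Neat1-/- mouse, a ratio that rests on 1 Neat1-/- mouse and was not tested on its own.

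**Figure D3:**
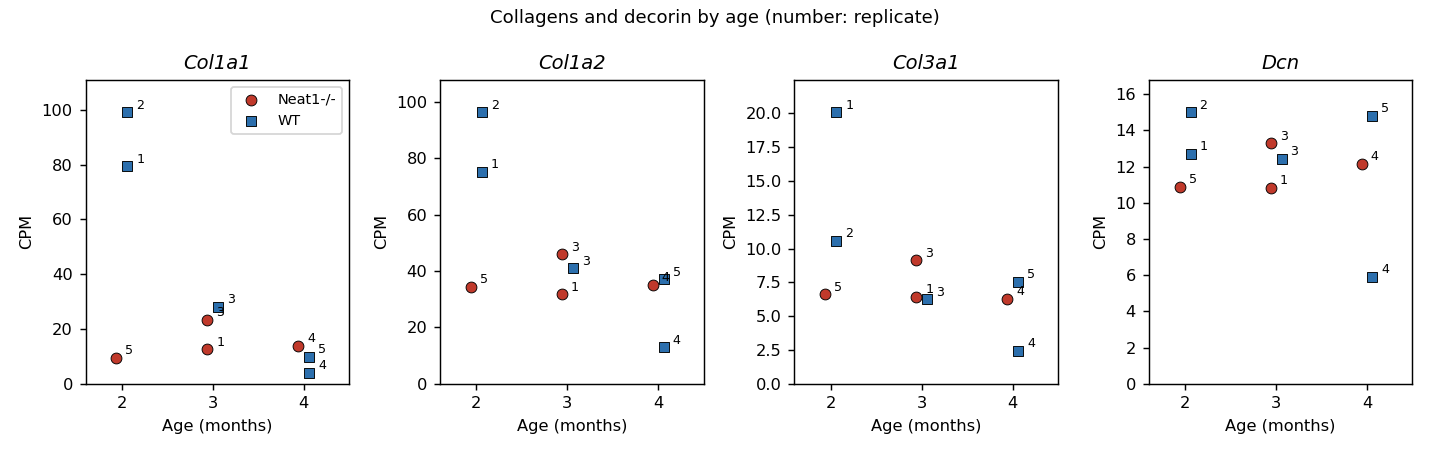
TMM-scaled CPM of Col1a1, Col1a2, Col3a1 and Dcn by age in months, with Neat1-/- mice as red circles, set slightly to the left, and WT mice as blue squares; numbers are replicates. The 2 WT mice of 2 months stand highest in the 3 collagens, at 79.5 and 99.1 CPM of Col1a1, while the Neat1-/- mouse of 2 months is at 9.51 CPM; Dcn does not share the pattern.

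Over age, with genotype in the fit, 4 of the 30 tested members were lower and 0 higher with age at an unadjusted p under 0.05, against 3.12% lower and 2.86% higher of all tested genes. They were Col1a1, at -1.23 ± 0.317 per month (SE; edgeR adjusted p = 0.820) on the log2 scale, Col1a2, at -0.61 ± 0.178 per month (SE; edgeR adjusted p = 0.820), Col3a1, at -0.58 ± 0.194 per month (SE; edgeR adjusted p = 0.820), and Spp1, at -0.24 ± 0.101 per month (SE; edgeR adjusted p = 0.820). No member passed an adjusted p of 0.05, and over all tested genes 0 did (0%), while 564 were higher and 617 lower with p unadjusted. DESeq2 and limma also called 0 members with age at an adjusted p under 0.05. All 16 meningeal members had a negative change with age, as did 23 of the 24 further meningeal genes, against 9707 of all 19753 tested genes. These genes share libraries, so their signs are not independent. WT replicate 4, the library lowest in the class, was 1 of the 3 oldest mice. The count of members lower with age was 10 of 29 without WT replicate 5, where 6.36% of all tested genes were, and 3 or 4 without each other library. Without WT replicate 4 the change of Col1a1 was still negative, as it was without each other library, with a range of -1.60 to -0.90 per month. This fit gives both genotypes a shared slope, but Col1a1 fell with age in WT mice only. In WT mice it was at 79.5 and 99.1 CPM at 2 months and at 3.99 and 9.94 CPM at 4 months. In Neat1-/- mice it was at 9.51 CPM at 2 months (1 mouse), 12.6 and 23.4 CPM at 3 months and 13.9 CPM at 4 months. Without WT replicate 4 the change per month was -0.39 for Col1a2, -0.37 for Col3a1 and -0.11 for Spp1. Spp1 was past an unadjusted p of 0.05 no longer without WT replicate 1, 2 or 4 or Neat1-/- replicate 4, and Col3a1 no longer without WT replicate 1, at -0.33. With no filter on low counts, Col1a1, Col1a2 and Col3a1 were lower with age at adjusted p = 0.000308, 0.00377 and 0.0472 from edgeR.

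The difference between genotypes in the change with age, a fit chosen after the collagen values had been seen, was 2.08 per month for Col1a1 on the log2 scale (Neat1-/- minus WT, adjusted p = 0.371 from edgeR) and 0.90 for Col1a2 (adjusted p = 1 from edgeR). At an unadjusted p under 0.05, 2 of the 30 members were found, against 1.95% of all tested genes, and 0 genes passed an adjusted p of 0.05.

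By genotype, 0 of the 16 meningeal members passed an adjusted p of 0.05, and 0 passed an unadjusted p under 0.05 in either direction. The median log2 fold change was 0.10, and 11 of the 16 were positive, against 9853 of all 19753 tested genes. The largest positive values were those of Fmod, 0.37 ± 0.223 (SE; edgeR adjusted p = 0.657), and Ogn, 0.32 ± 0.243 (SE; edgeR adjusted p = 0.730). The collagens were on the negative side, Col1a1 at -0.76 ± 0.511 (SE; edgeR adjusted p = 0.682), Col1a2 at -0.29 ± 0.293 (SE; edgeR adjusted p = 0.799) and Col3a1 at -0.21 ± 0.321 (SE; edgeR adjusted p = 0.867).

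With single libraries left out, Col1a1 ran from -1.19 without WT replicate 4 to -0.11 without Neat1-/- replicate 5, the 2-month mouse. Col1a2 ran from -0.58 to -0.00034 without the same libraries, and Col3a1 from -0.48 without WT replicate 4 to 0.058 without WT replicate 1.

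Counts of members by genotype moved with single libraries. Without WT replicate 4 the median of the meningeal class was -0.06, and 6 of the 30 members (Col1a1, Col1a2, Dcn, Otx2, Sostdc1 and Ttr) were lower at an unadjusted p under 0.05, against 3.1% of all genes tested in that fit. Without WT replicates 3 and 4, 6 members were lower (Col1a1, Col1a2, Col3a1, Dcn, Otx2 and Sostdc1), against 3.48%, and 0 were higher. This fit leaves out libraries chosen because they stood apart in these same members, so its count is not independent of that choice. In that fit the log2 fold change was -1.36 ± 0.479 for Col1a1 (SE; edgeR adjusted p = 0.573) and -0.29 ± 0.086 for Dcn (SE; edgeR adjusted p = 0.482), and the 3 WT mice left were aged 2, 2 and 4 months. Without WT replicate 5, in turn, 4 members were higher (Crabp2, Fmod, Islr and Ogn), against 6.13%, and 3 were lower (Otx2, Sostdc1 and Ttr), against 8.58%. Without WT replicate 2, 5 members were lower (Folr1, Otx2, Sostdc1, Tmem212 and Ttr), against 5.37%, and without WT replicate 1, 3 were (Otx2, Sostdc1 and Ttr), against 4.38%. Sostdc1 was the 1 lower member without Neat1-/- replicate 1, against 3.11%, and without Neat1-/- replicate 5, against 4.05%. None of these passed an adjusted p of 0.05 in the fit concerned.

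Over all 30 tested members, then, 0 were called by genotype at an adjusted p under 0.05, in the fit given or in any alternative, 2 were lower and 0 were higher at an unadjusted p under 0.05, against 4.03% and 4.27% of all tested genes. DESeq2 gave 2 lower, against 4.01% of all tested genes, and 0 higher, against 3.79%, and no adjusted p for Sostdc1 and Otx2. With limma 2 were lower (Sostdc1 and Col1a1), against 4.39%, and 1 was higher (Fmod), against 5.5%. In 1 of the 30 the Neat1-/- mice all lay below the WT mice, against 1.01% of all tested genes, and in 0 they all lay above, against 1.66%. That 1 member, Sostdc1, had passed the filter on low counts through the WT mice. The median log2 fold change of the 30 was -0.04. Of the 24 further meningeal genes 5 were higher, with p unadjusted and under 0.05, and 0 were lower (Col6a1, Col6a2, Nupr1, Slc47a1 and Mgp). Of these 24, 21 were positive, against 9853 of all 19753 tested genes, with a median of 0.20 and none at an adjusted p under 0.05. WT replicate 4 was the lowest library in 20 of these 24 genes, with a list median of -0.78. The part of that library in these differences was not tested. Col6a1 was at 85.04 ± 3.39 CPM in Neat1-/- mice (SD, n = 4) and 72.1 ± 7.69 CPM in WT mice (SD, n = 5), which gave a log2 fold change of 0.24 ± 0.0658 (SE; edgeR adjusted p = 0.430). Border macrophage, endothelial and mural genes had medians of 0.06, 0.01 and -0.04.

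**Figure D4:**
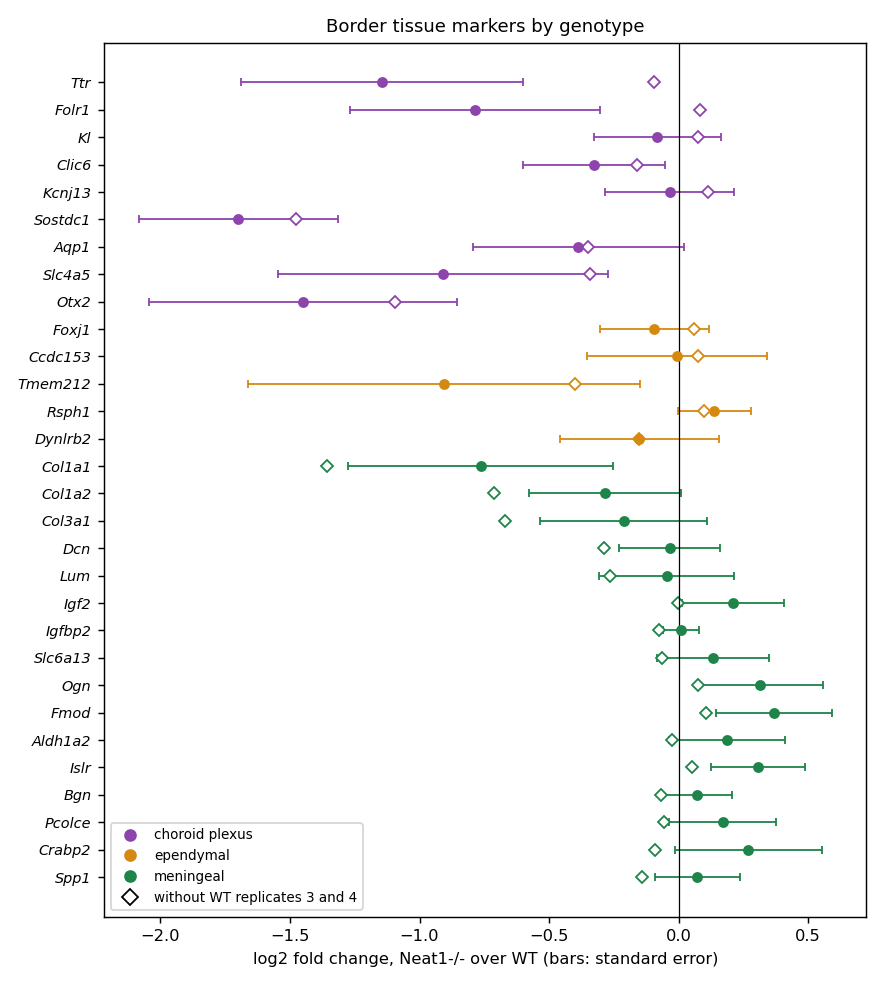
log2 fold change (Neat1-/- over WT) of the 30 tested members, with circles and standard error bars for the fit to all 9 mice and open diamonds for the fit without WT replicates 3 and 4; purple, choroid plexus, orange, ependymal, green, meningeal. Sostdc1 and Otx2 lie lowest with all mice, at -1.70 and -1.45, and Sostdc1 and Col1a1 without the 2 libraries, at -1.48 and -1.36; the diamonds of Ttr and Folr1 lie near 0.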

How the data were processed

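RNA-seq of frontal cortex from 4 Neat1-/- and 5 WT mice was used. The authors deposited counts per Ensembl gene, made per the processing notes with STAR 2.5.0 and HTSeq 0.8.0 on mm10, while the supplementary methods name TopHat and Bowtie; the strand setting is not given in the sources used here. The authors also deposited log2 normalized values (TMM, limma, covariates removed), which hold 13456 genes and 19 of the members. All column names matched a sample, 0 entries named no gene, and no deposited fold changes were used. Of the IDs, 42462 had a name in GENCODE vM21, with 99.8% of the counts.

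Genes passing edgeR's filterByExpr (minimum count 10) were tested with the quasi-likelihood test (edgeR 4.0.16 in R 4.3.3) on genotype and age in months after TMM scaling, with Benjamini-Hochberg adjustment at 0.05 over 19753 genes. The two-sided exact permutation test used 126 splits of the CPM. Class levels used log2 CPM with a prior count of 2, without a test. The p-values measure the spread between mice. Alternatives were DESeq2 1.42.0, limma 3.58.1 (voomWithQualityWeights), other size factors and filters, other age terms (age by genotype was added after the data were seen), the replicate number as a block, single libraries left out, WT replicates 3 and 4 left out, and the deposited values for class levels. The test was checked on simulated counts. Tables and plots used pandas 2.3.3, SciPy 1.17.1, NumPy 2.4.6 and Matplotlib 3.10.9 in Python 3.11.15.

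The members and lists were chosen with earlier results of these data known. Named were all members, Neat1, of each further list the called genes or else the 2 of highest level per length, and the 10 genes most extreme in a library that was highest or lowest in 50% or more of a class (mean CPM of at least 0.5). Sequences came from RefSeq (GRCm38.p6). That of Ttr was not used here. Some genes of the further lists, and the microglial list by genotype, are not reported here.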

Additional observations from a re-analysis of the deposited data

Results flagged for a closer look

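In 17 of 68 sets of 4 or 5 values, a single mouse lay far from the rest of its genotype by Dixon's 95% criterion, which chance meets in about 1 of 20 sets. The members share libraries, so these are not independent. WT replicate 3 was far above the other WT mice in Ttr (102 CPM, the next at 20.2 CPM), Folr1 (1.45 CPM), Clic6 (3.39 CPM), Kcne2 (1.28 CPM), Slc4a5 (0.784 CPM) and the median of the choroid plexus class (1.41 on the log2 scale). WT replicate 4 was far below the other WT mice in Dcn (5.91 CPM), Igf2 (7.57 CPM), Bgn (3.22 CPM) and the median of the meningeal class (-1.14). Neat1-/- replicate 3 was far above the other Neat1-/- mice in Kcnj13 (2.03 CPM), Col3a1 (9.14 CPM), Ogn (17.0 CPM) and Islr (14.5 CPM), and far below them in the median of the ependymal class (-0.85). WT replicate 2 was far below the other WT mice in Ccdc153 (0.209 CPM) and in the median of the ependymal class (-0.50).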

How the results depend on the processing

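Counts of members at an unadjusted p under 0.05 moved with the processing, and the cause was not tested where none is given. The members lower in Neat1-/- mice numbered 6 of 31 with no filter on low counts (4.21% of all genes tested in that fit), 0 of 22 with a filter of CPM of at least 1 in 4 libraries, which removes Sostdc1 and Otx2 (4.47%), 4 with no age term (4.07%), 4 with age as a factor (4.89%), 6 without WT replicates 3 and 4 (3.48%), and 1 to 6 when single libraries were left out. The members higher numbered 1 with limma (5.5%), 3 with no filter (3.35%), and 0 to 4 when single libraries were left out. With age, 1 member was higher with DESeq2 (2.58%), 2 with limma (3.92%), 2 with no filter (2.81%), 1 without WT replicates 3 and 4 (3.25%) and 0 to 1 when single libraries were left out, and 3 to 10 were lower, with 10 without WT replicate 5 (6.36%). The 3 collagens passed an adjusted p of 0.05 with age only with no filter. Over all genes, 75 were called by genotype with DESeq2, 22 with limma, 76 with no filter and 8 to 30 when single libraries were left out, with 1037 to 2879 at an unadjusted p under 0.05. The median of the choroid plexus class was -0.22 with the CPM filter, -0.16 without WT replicates 3 and 4 and -1.02 to -0.12 when single libraries were left out.

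Some log2 fold changes changed sign, most of them small, with Folr1, at -0.79 in all mice, an exception. With limma they were 0.12 for Kl, 0.058 for Kcnj13, 0.044 for Ccdc153, 0.012 for Dcn and 0.088 for Lum. Igfbp2 was at -0.0031 by library size alone and -0.0032 with the CPM filter, and Ccdc153 at 0.022 with age as a factor. Without WT replicates 3 and 4 they were 0.084 for Folr1, 0.073 for Kl, 0.11 for Kcnj13, 0.059 for Foxj1, 0.076 for Ccdc153, -0.0042 for Igf2, -0.075 for Igfbp2, -0.066 for Slc6a13, -0.025 for Aldh1a2, -0.068 for Bgn, -0.058 for Pcolce, -0.091 for Crabp2 and -0.14 for Spp1. With single libraries left out the ranges that crossed 0 were -0.25 to 0.21 for Kl, -0.25 to 0.17 for Kcnj13, -0.22 to 0.080 for Foxj1, -0.22 to 0.21 for Ccdc153, -0.32 to 0.079 for Dynlrb2, -0.48 to 0.058 for Col3a1, -0.24 to 0.15 for Dcn, -0.27 to 0.15 for Lum, -0.0015 to 0.38 for Igf2, -0.044 to 0.069 for Igfbp2, -0.081 to 0.33 for Slc6a13, -0.025 to 0.41 for Aldh1a2, -0.068 to 0.14 for Bgn, -0.043 to 0.30 for Pcolce and -0.085 to 0.20 for Spp1. Sostdc1 and Otx2 stayed negative in every alternative that tested them.

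Deviations of same-numbered mice correlated at 0.044, -0.045, 0.137 and -0.077 for replicates 1, 3, 4 and 5. The highest correlations of these Neat1-/- mice with a WT mouse of another number were 0.067, 0.077, 0.105 and 0.056. Only replicate 4 was thus closer to its same-numbered mouse, and the mice numbered 3 and 4 also share an age. These values cannot tell whether the numbers mark a pairing. With the replicate block, 4 members were lower (5.78% of all tested genes) and 3 higher (4.02%) by genotype at an unadjusted p under 0.05, 0 were lower with age (1.39%), and the log2 fold changes were 0.026 for Kl, 0.14 for Dcn and 0.24 for Lum. In the deposited log2 values, from which covariates had been removed, the median of the meningeal class was -0.53 in WT replicate 4 and 0.73 in WT replicate 3, while the choroid plexus class, with 2 genes there, was at 1.07 in WT replicate 3. The median of the 3 collagens in these values was 1.03 in WT replicate 3, against 0.64 and 0.52 in WT replicates 1 and 2. Col1a1 and Col1a2 were highest there in WT replicate 3, and Col3a1 in WT replicate 1. Depth limits Kcne2, Slc4a5, Folr1, Sostdc1, Otx2 and Tmem212, which had under 30 counts in most libraries.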

Other observations

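Lists of other tissues were set beside the members. The 5 erythroid genes, Hbb-bs and Alas2 among them, ran from -1.26 to 0.69 in Neat1-/- mice and from -0.08 to 1.30 in WT mice as list medians, highest in WT replicate 1. The 6 striatal genes, Ppp1r1b among them, were all highest in WT replicate 1, with a list median of 0.47 there, and the 4 genes of the dentate gyrus, Prox1 and C1ql2 among them, ran from -0.47 to 0.17 in Neat1-/- mice and from -0.11 to 0.33 in WT mice. The library that was high in choroid plexus genes, WT replicate 3, was at -0.19 in the striatal list and at 0.27 in the dentate gyrus list. Of the 4 dentate gyrus genes, 2 were at their highest in that library, as were 18.5% of all tested genes. Of the 24 further genes of motile cilia 8 were, with a list median of 0.17 there. By genotype, with p unadjusted and under 0.05, 3 of 13 endothelial genes (Slco1a4, Itm2a and Egfl7) were higher, against 4.27% of all tested genes, 2 of 6 oligodendrocyte genes (Mag and Mobp) and 1 of 4 dentate gyrus genes (Tdo2) were lower, against 4.03%, and 0 of the 12 mural, 8 astrocyte, 8 neuronal, 7 border macrophage, 6 striatal and 5 erythroid genes were in either direction. None of the genes of these lists passed an adjusted p of 0.05, and the genes in parentheses are named for this result.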
